A study of Homo sapiens with 46 samples.

Results

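The 9 genes described here, ANKRD1, CCN1, CCN2, AMOTL2, AJUBA, LATS2, AXL, F3 and THBS1, are reported targets of the transcriptional coactivator YAP. They were taken as a list of names and found by symbol among the 62756 genes of a raw count table. The list was chosen with earlier results of these data known. Its counts set beside shares of all genes are therefore descriptions, not tests of the list. All 9 passed the low-count filter that left 21484 genes to test. The counts came from ribosomal RNA-depleted total RNA of DLD-1, a human cell line that was established from a colorectal adenocarcinoma and grows attached. The parental line (genotype WT) was compared with 3 lines of genotype LA/C-AID, LB1-AID and LB2-AID, called LAC, LB1 and LB2 here. In these, the cell's own lamin A/C, B1 or B2, respectively, has at its N terminus an auxin-inducible degron, a tag that marks a protein for degradation once the plant hormone auxin is present. Lamins form the meshwork under the inner nuclear membrane. All 4 lines were sampled without auxin (0 h) and after 16 and 96 h of 1 mM auxin in DMSO, which gave 12 groups and 46 libraries. Groups had 4 replicates, except LB1 at 0 h and LB2 at 96 h, which had 3. The parental line was treated so that genes responding to auxin itself could be listed. Replicates were single wells of culture plates, so p-values measure the spread between wells. The labels state neither whether cells at 0 h received DMSO, nor whether a tagged line is 1 clone, nor the density of the cells.

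YAP and its relative TAZ are the effectors of the Hippo pathway. The MST kinases activate the LATS kinases, which phosphorylate YAP and TAZ and keep them in the cytoplasm, whereas unphosphorylated YAP enters the nucleus, binds the DNA-binding TEAD factors and switches on genes of growth, adhesion and the extracellular matrix. The pathway responds to cell crowding, to the shape and tension of the cell and to serum factors, and in the intestine it is known for its part in regeneration and in colorectal tumours. Several targets feed back on the pathway: LATS2 is one of its kinases, AMOTL2 binds and retains YAP, and AJUBA is a LIM protein that holds LATS kinases inactive.

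Library totals ran from 479446 to 37309421 counts with a median of 11533218. Of the 46 libraries, 6 held under 5000000 counts and 5 of these were at 0 h; replicate 3 of LB2 at 16 h was the least deep. Markers of colorectal epithelium summed to between 5350 and 11900 CPM per library (CPM, counts relative to the library total after TMM scaling; 9 of the 10 markers passed the filter, while CDX1 did not). KRT8, KRT18 and CDH1 gave the largest parts, at 4180, 1550 and 1040 CPM in the parental line at 0 h. VIL1 was at 1.22 CPM there, near the fibroblast marker COL1A1 at 1.92. Markers of fibroblasts, endothelium and leukocytes summed to at most 6.1, 1.26 and 0.927 CPM, and COL1A2 and DCN had 0 counts in every library. Of these markers, 2 of 6 for fibroblasts, 1 of 3 for endothelium and 0 of 3 for leukocytes passed the filter. In bulk RNA, fewer cells that express a gene and less RNA of it per cell cannot be told apart.

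The promoters of 4 members are shown because they show the copies and the spacing of the TEAD motif in members described below, and 1 member, F3, without it. Each is the 250 bases before the annotated start, 5′ to 3′ on the gene's strand, from RefSeq on GRCh38.p14. Capitals mark GGAATG, the core that TEAD factors recognise, in ANKRD1 (minus strand, chr10:90921088-90921337), CCN2 (minus strand, chr6:131951373-131951622) and THBS1 (plus strand, chr15:39580829-39581078), and TGANTCA, the AP-1 motif, in F3 (minus strand, chr1:94541760-94542009).
ANKRD1: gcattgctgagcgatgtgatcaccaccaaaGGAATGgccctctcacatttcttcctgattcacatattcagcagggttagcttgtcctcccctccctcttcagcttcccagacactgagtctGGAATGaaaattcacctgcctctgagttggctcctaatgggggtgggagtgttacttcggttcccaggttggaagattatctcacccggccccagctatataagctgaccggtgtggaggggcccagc
CCN2: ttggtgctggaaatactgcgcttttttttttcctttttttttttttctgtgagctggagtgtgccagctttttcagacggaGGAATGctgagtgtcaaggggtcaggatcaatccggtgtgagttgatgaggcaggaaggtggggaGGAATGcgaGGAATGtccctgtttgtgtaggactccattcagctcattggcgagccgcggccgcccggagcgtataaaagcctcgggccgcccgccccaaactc
THBS1: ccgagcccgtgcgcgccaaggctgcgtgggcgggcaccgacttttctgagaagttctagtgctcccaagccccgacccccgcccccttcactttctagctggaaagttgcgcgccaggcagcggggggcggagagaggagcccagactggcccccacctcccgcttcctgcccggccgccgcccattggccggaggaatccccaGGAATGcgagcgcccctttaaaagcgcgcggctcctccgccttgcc
F3: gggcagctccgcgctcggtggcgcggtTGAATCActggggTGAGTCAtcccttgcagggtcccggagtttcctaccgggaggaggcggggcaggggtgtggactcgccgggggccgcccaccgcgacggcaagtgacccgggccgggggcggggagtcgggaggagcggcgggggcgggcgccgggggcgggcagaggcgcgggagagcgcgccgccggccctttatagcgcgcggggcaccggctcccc
The CCN2 stretch held 3 copies of GGAATG, starting 169, 104 and 95 bases before the gene's start, the last pair separated by 3 bases. ANKRD1 held 2, at 220 and 128 bases before the start, and THBS1 held 1, at 46 bases before it. F3 had none in this window and held 2 AP-1 motifs, at 223 and 210 bases before the start. The search for TGANTCA took any base at N, which was A and G in the F3 matches. ANKRD1 also held a match, with T at N, 195 bases before its start, which is left in lower case above.

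Over windows of 300 bases (250 before and 50 after a start, both strands searched, GGAATG or its reverse complement CATTCC), 7 of the 8 members found in the RefSeq table (all but CCN1) had the TEAD core in at least 1 of their windows; for AMOTL2, AJUBA and AXL this was at a second annotated start only. Per window the count was 7 of 11, against 14.0% of all 35116 promoter windows. TGANTCA was present in 2 of the 11, those of F3 and ANKRD1, against 7.71% of all windows, and the TEAD and AP-1 motifs did not overlap in any of them. The CArG box, the motif of serum response factor, was in 0 of 11, against 1.29% of all windows. Members with more than 1 start in the table had more windows, so these shares are descriptions of letters in a sequence and say nothing about binding.

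Levels of different genes were compared per length, as CPM per kilobase of exon (mean ± SD, n = 4). In the parental line at 0 h the order ran from AMOTL2 at 62.7 ± 4.74 through THBS1 at 61.9 ± 7.64, ANKRD1 at 55.2 ± 7.24, CCN1 at 47.9 ± 5.82, AJUBA at 44.8 ± 4.2 and F3 at 37.3 ± 4 to LATS2 at 14.2 ± 1.81 and CCN2 at 14.2 ± 1.2. AXL stood far below the rest at 0.748 ± 0.223. Neighbours from AMOTL2 to ANKRD1, CCN1 and AJUBA, and LATS2 and CCN2, differed by less than the larger of their SDs. After 96 h of auxin in the same line, ANKRD1 was at 4.46 ± 0.905 CPM per kilobase, below CCN2 at 11.4 ± 1.11, while THBS1 at 45 ± 2.92 led the order.

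With auxin, every called change of a member was a fall. In the parental line 6 of the 9 members fell at 16 h, against 4.78% of all genes tested that fell, and 4 fell at 96 h, against 3.84%. In the tagged lines few calls were made early: at 16 h only ANKRD1 passed the test in LAC, LB1 and LB2 (1 of 9 each, with 0.447%, 0.517% and 0.377% of all genes falling). At 96 h, 8 members fell in LAC (8.64% of all genes fell), 8 in LB1 (2.12%) and 5 in LB2 (1.6%). The median log2 change of the 9 members at 96 h was -0.97 in LAC, -1.05 in LB1, -0.76 in LB2 and -0.47 in the parental line, while that of all genes lay between -0.03 and 0.04. A call is an adjusted p under 0.05 in edgeR's quasi-likelihood test with Benjamini-Hochberg adjustment over all genes tested. Both times of a line share its 0 h libraries, and the comparisons of tagged lines with the parental line further below share the parental libraries. The parental count at 16 h fell to 2 without the low-count filter and to 3 without replicate 1, 2 or 3 of the parental line at 0 h, and the count at 96 h was 7 with limma voom, with the compared libraries alone or without libraries under 5000000 counts.

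**Figure D1:**
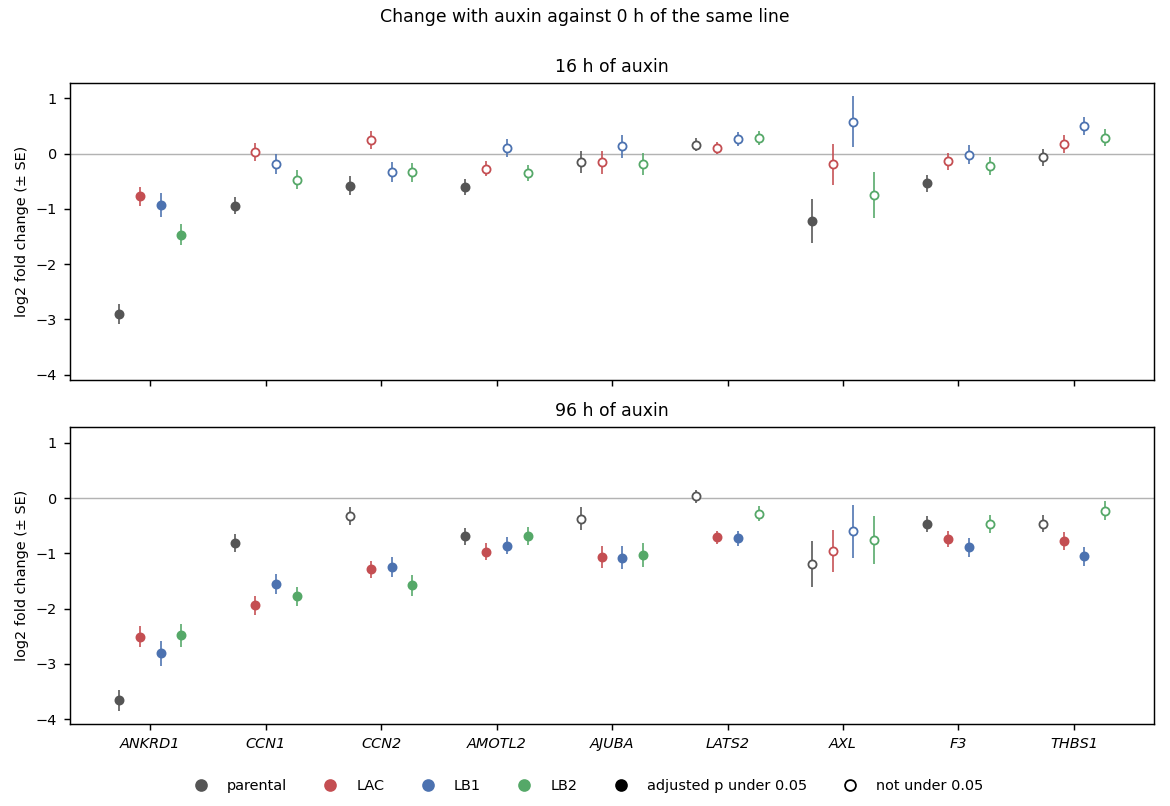
Log2 change of each gene against 0 h of the same line after 16 h (top) and 96 h (bottom) of auxin, with the standard error as bars, by line in colour; filled points have an edgeR adjusted p under 0.05. At 16 h the filled points are 6 of the parental line and ANKRD1 in each tagged line, and at 96 h every point of LAC and LB1 lies below 0 and 8 of 9 in each are filled.

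ANKRD1, a nuclear and sarcomeric ankyrin repeat protein that is among the most used reporters of YAP activity, moved most. The gene (ENSG00000148677.7) lies on the minus strand of chromosome 10, from 90912096 to 90921087 on GRCh38 (as all gene positions here), and overlaps no other annotated gene. Its 4 parental libraries held 117, 96.1, 85.9 and 96.7 CPM at 0 h, then 12.7, 13.0, 14.7 and 12.7 at 16 h, and 7.27, 7.58, 10.3 and 6.71 at 96 h. The 3 times did not overlap, and most of the fall had taken place by 16 h. That fall was 7.48-fold (log2 -2.90 ± 0.18 SE, edgeR adjusted p 2.33e-16), and it reached 12.6-fold at 96 h.

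The tagged lines started lower. The LAC libraries at 0 h held 30.8, 38.1, 31.3 and 40.6 CPM of ANKRD1, those of LB1 held 17.1, 23.2 and 17.6, and those of LB2 held 30.5, 33.4, 36.2 and 48.9. None of these 11 libraries reached the lowest parental one, and LB1 lay below both other tagged lines. The log2 difference from the parental line was -1.48 ± 0.17 for LAC, -2.42 ± 0.21 for LB1 and, for LB2, -1.41 ± 0.17 (edgeR adjusted p 2.04e-08, 1.7e-12 and 9.54e-08), and each passed in all alternatives tried. By 16 h LAC held 22.3, 21.8, 23.1 and 16.4 CPM, LB1 13.4, 10.6, 7.94 and 7.78, and LB2 11.5, 16.6, 21.8 and 11.2. Here the lines had come together, with LB1 and LB2 overlapping the parental libraries and LAC just above them. By 96 h LAC held 7.05, 5.76, 6.57 and 5.36 CPM, LB1 3.42, 3.42, 2.07 and 1.6, and LB2 7.23, 7.09 and 5.85. LAC and LB2 overlapped the parental range and LB1 remained under it.

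Within the tagged lines the fall of ANKRD1 was smaller at 16 h and its final level was close to the parental one, except in LB1. The log2 change was -0.77 ± 0.17 at 16 h and -2.51 ± 0.19 at 96 h for LAC, -0.93 ± 0.21 and -2.81 ± 0.22 for LB1, and -1.47 ± 0.19 and -2.48 ± 0.21 for LB2 (edgeR adjusted p at 16 h 0.0122, 0.0105 and 1.51e-06). All 3 changes at 96 h passed in every alternative. The 16 h changes were less secure. In LAC the call was lost when only the libraries compared entered the edgeR fit (adjusted p 0.162) and without replicate 4 at either 0 or 16 h (log2 -0.66 to -0.68). In LB1 it was lost without replicate 2 at 0 h (-0.85, edgeR adjusted p 0.0512), a library of 1452968 counts, and in LB2 in the fit to the compared libraries alone (-1.51, edgeR adjusted p 0.071).

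**Figure D2:**
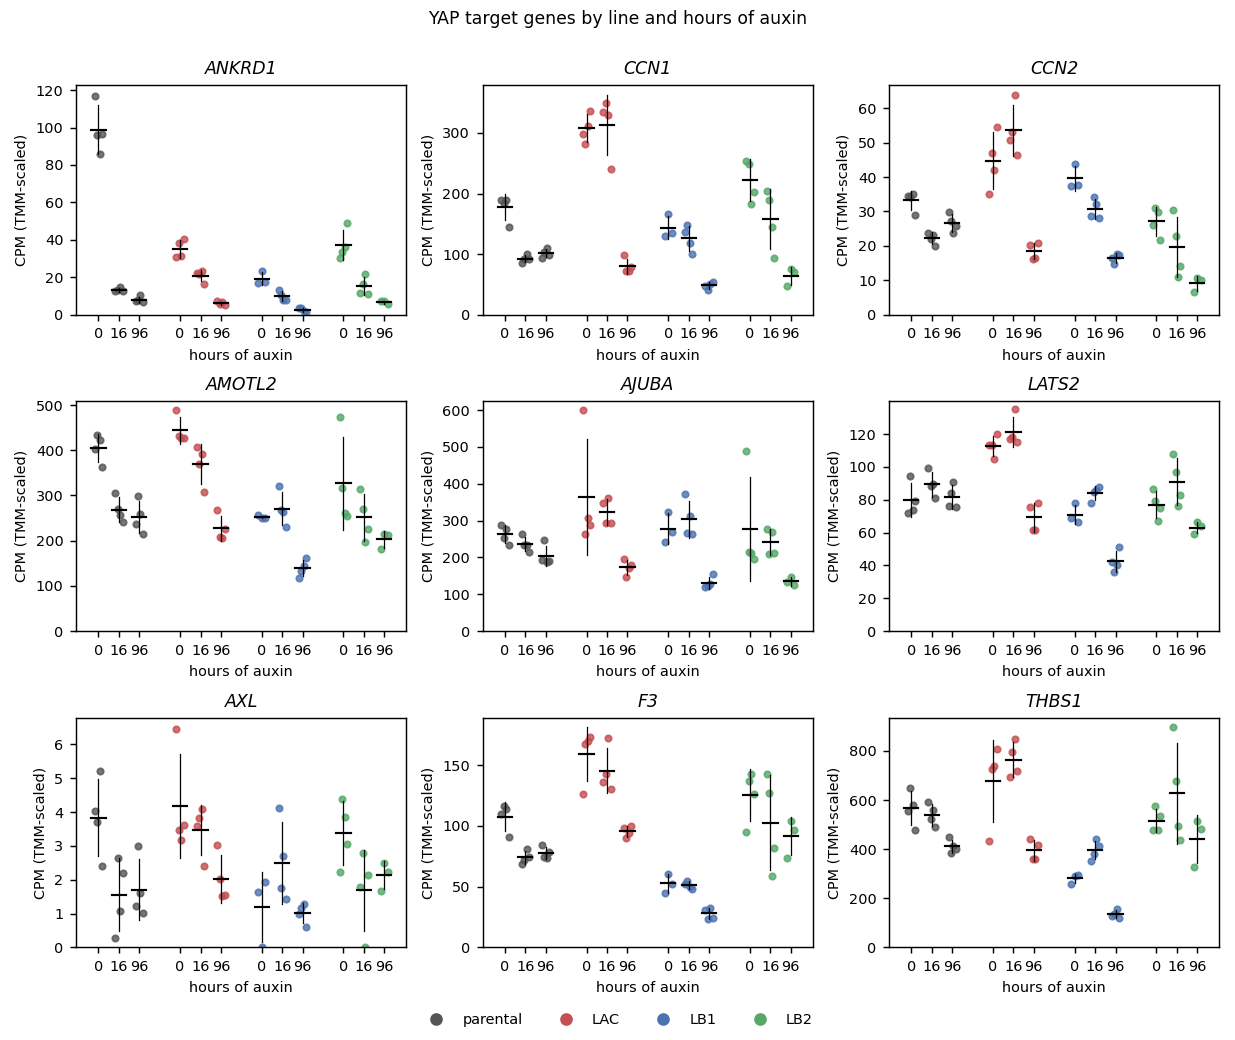
CPM of each gene in every library (points), with the group mean as a horizontal line and 1 SD as a vertical line, by hours of auxin within the parental line, LAC, LB1 and LB2; each panel has its own axis from 0. ANKRD1 drops from 98.9 CPM to 13.3 in the parental line by 16 h, whereas CCN1 and CCN2 in LAC stay high at 16 h and drop by 96 h.

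CCN1 and CCN2 encode secreted matricellular proteins that bind integrins and are standard readouts of YAP. CCN1 (ENSG00000142871.18) lies on the plus strand of chromosome 1, from 85580761 to 85584589, with no overlapping gene. The parental libraries held 190.0, 185, 189 and 145 CPM at 0 h, 85.6, 92.1, 101 and 91.5 at 16 h, and 93.8, 104, 110.0 and 98.6 at 96 h. The fall was complete by 16 h, and the later libraries all lay below those at 0 h (log2 -0.94 ± 0.16 and -0.81 ± 0.16, edgeR adjusted p 0.000222 and 0.00103).

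LAC showed no such early step. Its libraries held 299, 282, 312 and 337 CPM of CCN1 at 0 h and 334, 350.0, 330.0 and 240.0 at 16 h, then 98.3, 72.8, 71.3 and 78.9 at 96 h. The first groups overlapped each other and lay above every parental library, and the 96 h group lay below both. At 16 h LAC thus had 3.39-fold the parental level (log2 1.76 ± 0.17, edgeR adjusted p 5.05e-11), after 1.74-fold at 0 h, and its change from 0 to 96 h was -1.94 ± 0.17 (edgeR adjusted p 5.27e-12). The LAC change at 16 h minus the parental one, 0.97 ± 0.23, was not called (edgeR adjusted p 0.0698). LB2 ran from 253, 249, 183 and 203 CPM at 0 h through 205, 190.0, 144 and 94.1 at 16 h to 47.7, 74.9 and 69.9 at 96 h. Its 96 h libraries did not overlap the others (-1.78 ± 0.18), while those at 16 h ran from the 0 h range down toward them. LB1 held 130, 166 and 135 at 0 h, 137, 148, 118 and 101 at 16 h, and 47, 41, 51 and 53.9 at 96 h (-1.56 ± 0.18). Its groups at 0 and 16 h overlapped and the last stood apart below them. All 4 falls of CCN1 at 96 h passed in every alternative.

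CCN2 (ENSG00000118523.6, chromosome 6, minus strand, 131948176 to 131951372) overlaps LINC01013 on the other strand, so a part of its counts is uncertain where the counting did not use strand. Before auxin the parental libraries held 34.6, 34.2, 35 and 29 CPM, LAC 35, 47.1, 42.1 and 54.6, LB1 37.4, 43.8 and 37.7, and LB2 26.1, 31.1, 29.8 and 21.7. The lines were close: LB1 lay just above the parental libraries, LAC and LB2 overlapped them, and no difference was called. After 96 h the parental libraries held 29.9, 27.2, 23.7 and 25.8 CPM, LAC 20.2, 16.3, 16.6 and 20.8, LB1 16.4, 14.6, 17.7 and 17.2, and LB2 6.7, 10.8 and 9.94. Each tagged line now lay below every parental library, and LB2 lay lowest. Over 96 h the log2 change was -1.29 ± 0.16 for LAC, -1.24 ± 0.18 for LB1 and -1.58 ± 0.19 for LB2, against -0.32 ± 0.16 for the parental line, which was not called (edgeR adjusted p 1.4e-07, 4.08e-06, 2.19e-07 and 0.242). At 16 h LAC stood at 53.6 ± 7.43 CPM and the parental line at 22.2 ± 1.65 (SD, n = 4 each), a 2.41-fold difference with an edgeR adjusted p of 1.6e-07. The parental fall at 16 h, -0.58 ± 0.17 (edgeR adjusted p 0.0207), was lost without replicate 1, 2 or 3 at 0 h, without replicate 2 at 16 h (-0.51 to -0.56) and without the low-count filter (-0.49).

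THBS1, thrombospondin 1, is a secreted glycoprotein that binds matrix, platelets and latent TGF-beta. It lies on the plus strand of chromosome 15, from 39581079 to 39599466 (ENSG00000137801.11), and overlaps THBS1-IT1 on its own strand and THBS1-AS1 and FSIP1 on the other. LB1 was low in it at every time. LB1 held 260.0, 289 and 293 CPM at 0 h, 353, 379, 440.0 and 413 at 16 h, and 129, 136, 157 and 120.0 at 96 h. The parental line held 557, 650.0, 580.0 and 480.0 at 0 h, 592, 521, 558 and 489 at 16 h, and 448, 386, 414 and 399 at 96 h. At each time every LB1 library lay below every parental one. The log2 difference at 0 h was -1.02 ± 0.18, and that at 96 h was -1.60 ± 0.16 (edgeR adjusted p 7.02e-05 and 1.61e-10). The 16 h difference, -0.44 ± 0.16, was not called (edgeR adjusted p 0.11). THBS1 in LAC fell from 677 ± 166 to 394 ± 42.1 CPM over 96 h (SD, n = 4 each; -0.78 ± 0.16, edgeR adjusted p 0.000522). These groups overlapped through replicate 1 at 0 h, at 435 CPM, beside 728, 737 and 809 in the other 3. In LB2 the 96 h change was -0.23 ± 0.17 and in the parental line -0.46 ± 0.16, neither called (edgeR adjusted p 0.567 and 0.0605). The LB2 change passed in no alternative. The parental one passed in some, and its 96 h libraries all lay below those at 0 h. No tagged line's THBS1 change minus the parental one was called.

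Among the members that feed back on the Hippo pathway, AMOTL2, an angiomotin family scaffold that binds YAP at cell junctions, fell in all 4 lines by 96 h. The gene (ENSG00000114019.15, chromosome 3, minus strand, 134355347 to 134375479) contains the pseudogene RPL39P5 on its strand. The parental libraries held 403, 434, 423 and 364 CPM at 0 h, 306, 269, 256 and 242 at 16 h, and 236, 298, 258 and 215 at 96 h. As with CCN1, the parental fall was in place by 16 h and the later times overlapped each other. Log2 changes at 96 h were -0.69 ± 0.15 for the parental line, -0.97 ± 0.15 for LAC, -0.86 ± 0.16 for LB1 and -0.68 ± 0.16 for LB2 (edgeR adjusted p 0.00162, 6.68e-06, 0.00029 and 0.00743). LB1 again began lower, with 256, 250 and 251 CPM at 0 h (-0.69 ± 0.16 against the parental line, edgeR adjusted p 0.00449), and ended at 118, 133, 145 and 161.

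The fall of AMOTL2 in LB2 rested partly on a single library. At 0 h LB2 held 474, 317, 261 and 255 CPM, and the first of these, from a library of 1894447 counts, stood above the rest. Without it the change was -0.44 (edgeR adjusted p 0.0761), without replicate 1 at 96 h it was -0.58 (0.0643), and in the fit to the compared libraries alone the adjusted p was 0.255. The parental change at 16 h, -0.60 ± 0.14 (edgeR adjusted p 0.00675), missed the threshold, with -0.51 and an edgeR adjusted p of 0.0582, without the low-count filter.

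AJUBA (ENSG00000129474.16, chromosome 14, minus strand, 22971177 to 22982551) overlaps ENSG00000259132.1 on its strand. It fell at 96 h in the tagged lines. Its libraries at 0 h held 600.0, 263, 306 and 288 CPM for LAC, 241, 323 and 270.0 for LB1 and 489, 214, 211 and 195 for LB2. Replicate 1 of LAC and replicate 1 of LB2, of 3318819 and 1894447 counts, were far above the other libraries of their groups, which lay close together. By 96 h LAC held 196, 146, 171 and 180.0 CPM, LB1 119, 123, 128 and 155, and LB2 132, 148 and 124, all below those at 0 h. The changes were -1.06 ± 0.20, -1.08 ± 0.21 and -1.03 ± 0.22 (edgeR adjusted p 0.000178, 0.000884 and 0.00249). Without its high library the change was -0.71 for LAC and -0.61 for LB2, both still called by edgeR. The LB2 call was lost in the fit to the compared libraries alone (edgeR adjusted p 0.205). The parental mean of AJUBA was 263 ± 24.7 CPM before auxin and 204 ± 28.4 after 96 h (SD, n = 4 each), a change of -0.37 ± 0.20 that was not called (edgeR adjusted p 0.252). It did pass in some alternatives. At 96 h the AJUBA change minus the parental one was not called in any tagged line (LB2 -0.66, edgeR adjusted p 0.334).

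LATS2, the Hippo kinase, fell in LAC and LB1 at 96 h. It lies on the minus strand of chromosome 13, from 20973036 to 21061586 (ENSG00000150457.9), and overlaps RNU4-9P on its strand and LATS2-AS1 on the other. LAC held 113, 113, 105 and 120.0 CPM at 0 h, 117, 118, 135 and 115 at 16 h and 75.7, 61.8, 61.4 and 77.8 at 96 h. LB1 held 68.6, 77.7 and 66.5 at 0 h, 78.2, 84.7, 85.7 and 88 at 16 h and 42.2, 36.2, 40.3 and 51.1 at 96 h. In both lines the 96 h libraries lay below all earlier ones. The change was -0.71 ± 0.12 in LAC and -0.73 ± 0.13 in LB1 (edgeR adjusted p 2.51e-05 and 0.000157), both in every alternative. The parental line stayed between 71.7 and 99.1 CPM at all times, and its changes of 0.16 ± 0.12 and 0.03 ± 0.12 were not called. The LB2 change at 96 h, -0.28 ± 0.13, was not called (edgeR adjusted p 0.252), although its libraries, 59.1 to 66.1 CPM, lay below those at 0 h, 67.2 to 86.5; it passed with -0.32 once the GC and length trend was removed.

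AXL and F3 are cell surface members: AXL is a receptor tyrosine kinase bound by GAS6, and F3 is tissue factor, the membrane protein that starts blood coagulation. AXL (ENSG00000167601.12, chromosome 19, plus strand, 41219223 to 41261766, overlapping ENSG00000269652.1 on the other strand) was barely expressed, at 0 to 6.47 CPM. It had 0 counts in replicate 2 of LB1 at 0 h and replicate 3 of LB2 at 16 h. In these libraries 3 counts are 2.07 and 6.26 CPM before TMM scaling, so a low level could have been missed. Its only call was the parental fall at 16 h, from 4.02, 3.71, 5.2 and 2.42 CPM to 0.273, 2.65, 1.08 and 2.21 (-1.22 ± 0.40, edgeR adjusted p 0.0459). These groups overlapped, and the call was lost in 7 of 17 alternatives: without the low-count filter, and without replicate 1, 2 or 3 at 0 h or replicate 1, 3 or 4 at 16 h (-1.38 to -0.88). For AXL, changes of this size were at the limit of these depths.

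F3 (ENSG00000117525.14, chromosome 1, minus strand, 94529173 to 94541759, no overlapping gene) differed mainly between lines. Before auxin the parental libraries held 110.0, 116, 114 and 90.6 CPM, LAC 126, 167, 170.0 and 173, LB1 45.1, 60.4 and 52.5, and LB2 94.8, 137, 143 and 126. LAC lay above and LB1 below the parental libraries without overlap, and LB2 overlapped them. Log2 differences from the parental line were 0.56 ± 0.15 for LAC and -1.06 ± 0.18 for LB1 (edgeR adjusted p 0.00783 and 3.26e-05). Scaled by library size only, the LAC difference was 0.38 and missed the threshold (edgeR adjusted p 0.0573). At 96 h the parental libraries held 84.3, 74.1, 73.5 and 78.1 CPM, those of LAC 98.6, 89.6, 93.8 and 99.9, and those of LB1 30.9, 23.4, 32.6 and 24.5. LB1 was then 2.78-fold below the parental line (-1.47 ± 0.16, edgeR adjusted p 8.44e-10). Over 96 h the log2 change of F3 was -0.74 ± 0.15 for LAC and -0.89 ± 0.17 for LB1 (edgeR adjusted p 0.000598 and 0.000765). The parental log2 changes, -0.54 ± 0.15 at 16 h and -0.47 ± 0.15 over 96 h (edgeR adjusted p 0.0199 and 0.0449), were lost without the low-count filter and without replicate 1, 2 or 3 at 0 h. The first was also lost without replicate 1 or 2 at 16 h (-0.52 to -0.46) and the second without any 1 replicate at 96 h (-0.52 to -0.38).

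Counted over all members, the tagged lines differed from the parental line before auxin. In LAC at 0 h, CCN1, LATS2 and F3 were higher (3 of 9, against 8.71% of all genes) and ANKRD1 was lower (against 7.08%). In LB1, 4 were called, all lower (ANKRD1, AMOTL2, F3 and THBS1; 2.43% of all genes were lower), and in LB2 only ANKRD1, lower (4.3%). LATS2 in LAC differed by 0.50 ± 0.12 (edgeR adjusted p 0.0021) and missed the threshold in the fit to the compared libraries alone (0.46, edgeR adjusted p 0.0562).

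After auxin, LAC differed most at the earlier time. At 16 h, 5 members were higher in LAC than in the parental line (ANKRD1, CCN1, CCN2, LATS2 and F3; 1.24% of all genes were higher), and each of the 9 had a positive difference with a median of 0.66, against 0.03 over all genes. This count ran from 3, without replicate 4 of the parental line or replicate 3 of LAC at 16 h, to 9 with limma voom. ANKRD1 among them, 0.66 ± 0.18 (edgeR adjusted p 0.0217), was lost when scaled by library size only and without replicate 1, 2 or 4 of the parental line or replicate 1, 2 or 3 of LAC at 16 h (0.62 to 0.66). LATS2, 0.44 ± 0.11 (edgeR adjusted p 0.0177), was lost without the low-count filter and without replicate 4 of the parental line or replicate 3 of LAC at 16 h (0.38 to 0.40). LB2 had 2 higher members at 16 h, CCN1 and F3 (0.79 ± 0.17 and 0.55 ± 0.16, edgeR adjusted p 0.000818 and 0.0146; 4.87% of all genes were higher), and both groups overlapped the parental ones. F3 there was lost without replicate 1 or 2 of either group (0.32 to 0.52). In LB1 only F3 was called, lower (-0.53 ± 0.15, edgeR adjusted p 0.0316; 2.79% of all genes were lower). It was lost without the low-count filter and without any 1 library of both groups except replicate 1 of the parental line (-0.57 to -0.49).

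By 96 h it was LB1 that differed most. There 8 members were lower than in the parental line, every one except AXL, against 9.79% of all genes, with a median of -0.94 against 0.07 over all genes. Among them ANKRD1, AMOTL2, F3 and THBS1 had already been called lower in LB1 at 0 h. AJUBA was the weakest, -0.64 ± 0.20 (edgeR adjusted p 0.0197), and missed the threshold when scaled by library size only and without replicate 2 of the parental line or replicate 1 or 2 of LB1 at 96 h (-0.60 to -0.55). LB2 had 2 lower members, CCN2 at -1.53 ± 0.19 and CCN1 at -0.66 ± 0.18 (edgeR adjusted p 8.51e-08 and 0.0161; 4.03% of all genes were lower), and CCN1 was lost without replicate 1 of LB2 at 96 h (-0.43). In this comparison AJUBA also passed with the replicate block (-0.64, against -0.60 ± 0.21 and an edgeR adjusted p of 0.0782 without it). The block gives each replicate number the same effect in every group. Deviations of same-numbered wells correlated at 0.284, 0.47 and 0.137 here, and nothing in the labels pairs wells by number. In LAC 0 members were called by edgeR (1.36% of all genes were, in either direction). For LAC at 96 h, 3 members had an unadjusted p under 0.05, and DESeq2 and limma voom each called 1, CCN2, whose edgeR difference was -0.54 ± 0.16.

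**Figure D3:**
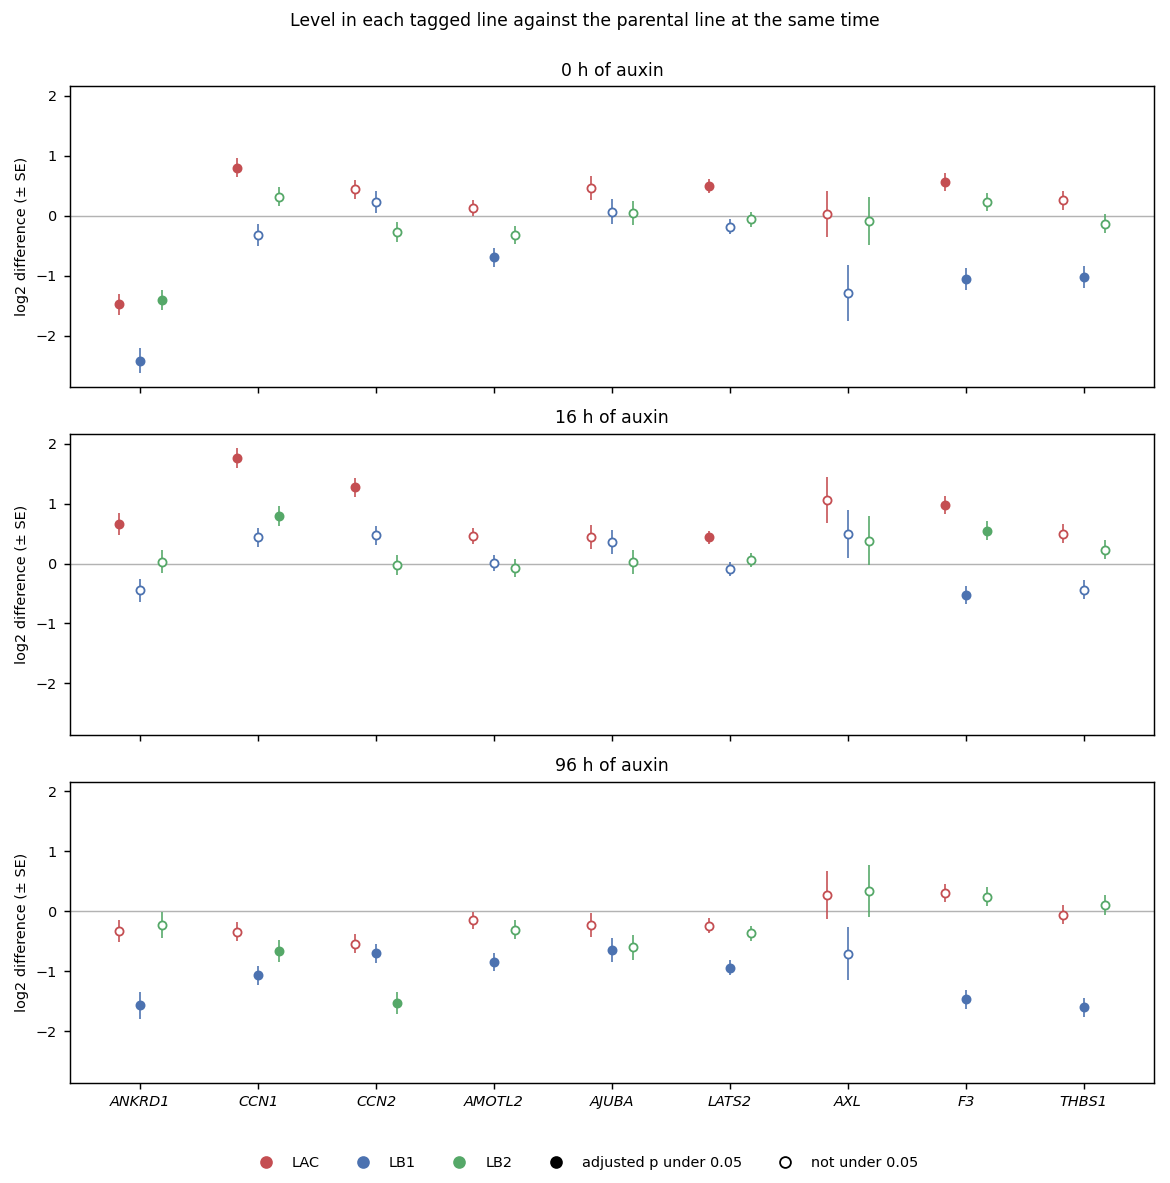
Log2 difference of each tagged line from the parental line at 0, 16 and 96 h of auxin, with the standard error as bars; filled points have an edgeR adjusted p under 0.05. Points of LAC lie above 0 at 16 h, with CCN1 at 1.76, and at 96 h the points of LB1 lie below 0, with THBS1 at -1.60.

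The response beyond that of the untagged line was tested as the change in a tagged line minus the parental change. At 16 h ANKRD1 alone was called among the members, in each tagged line (higher differences were called for 0.0745% of all genes in LAC, 0.0186% in LB1 and 0.00465%, which is 1 gene, in LB2). The differences were 2.13 ± 0.25, 1.97 ± 0.27 and 1.43 ± 0.26 (edgeR adjusted p 4.78e-07, 8.2e-05 and 0.0232): ANKRD1 fell less in the tagged lines than in the parental line, from levels at 0 h that were already lower. At 96 h it was called in LAC (1.14 ± 0.26, edgeR adjusted p 0.0058) and in LB2 (1.18 ± 0.27, 0.041). Both LB2 differences were fragile, the first passing in 12 of 25 alternatives and the second in 11 of 24. The first was lost with RLE scaling, in the fit to the compared libraries alone (1.38, edgeR adjusted p 0.398) and without replicate 1, 2 or 4 of either parental group, replicate 1, 2 or 3 of LB2 at 0 h or replicate 2 or 3 of LB2 at 16 h (1.22 to 1.44). The second was lost in the fit to the compared libraries alone (1.19) and without the same parental replicate numbers, the same LB2 replicates at 0 h or any 1 replicate of LB2 at 96 h (1.06 to 1.28).

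At 96 h other members fell further in the tagged lines than in the parental line. Besides ANKRD1, higher in LAC against 3.1% of all genes, 3 members were lower there, against 4.3%: CCN1 at -1.13 ± 0.23, CCN2 at -0.98 ± 0.23 and LATS2 at -0.74 ± 0.16 (edgeR adjusted p 0.00267, 0.00794 and 0.00513). CCN1 and CCN2 passed in all 25 alternatives, and LATS2 in 24, missing the threshold only without the low-count filter (-0.73, with an edgeR adjusted p of 0.0587). The levels of CCN1 and LATS2 in LAC at 0 h had been called above the parental ones. At 96 h the levels of these genes in LAC were not called different from the parental ones (-0.34 and -0.24, edgeR adjusted p 0.433 each). In LB1 it was CCN2 at -0.93 ± 0.24 and LATS2 at -0.76 ± 0.17 (edgeR adjusted p 0.0452 and 0.0187; 0.317% of all genes were lower). In LB2, CCN2 at -1.26 ± 0.25 and CCN1 at -0.98 ± 0.24 joined ANKRD1 (edgeR adjusted p 0.0179 and 0.0494; 0.0977% of all genes were lower and 0.27% higher). The CCN1 response in LB1, -0.76 ± 0.24, was not called (edgeR adjusted p 0.103), nor was the LATS2 response in LB2, -0.31 ± 0.17 (0.447); no tagged line's response was tested against another's.

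CCN2 was the member whose larger fall at 96 h was called in all 3 tagged lines, though not with equal firmness. The LB1 call passed in 9 of 24 alternatives. It was lost when scaled by library size only (-0.76), without the low-count filter (-0.98), with the replicate block (-0.90, edgeR adjusted p 0.0567) and without any 1 of 12 libraries (-0.99 to -0.85), all but replicate 2 of the parental line at 0 h and replicate 3 of the parental line and of LB1 at 96 h. The LB2 call was lost without replicate 2 of the parental line at 96 h, replicate 2 of LB2 at 0 h or replicate 1 of LB2 at 96 h (-1.28 to -1.06). LATS2 in LB1 was lost without the low-count filter (-0.81) and without replicate 2 or 3 at 0 h or replicate 2 at 96 h (-0.80 to -0.69). CCN1 in LB2 passed in 6 of 24 and was lost with RLE scaling (-0.92), by library size only (-0.81), without libraries under 5000000 counts (-0.87), in the fit to the compared libraries alone (-0.95) and without any 1 library except replicate 3 of LB2 at 0 h (-1.04 to -0.76).

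**Figure D4:**
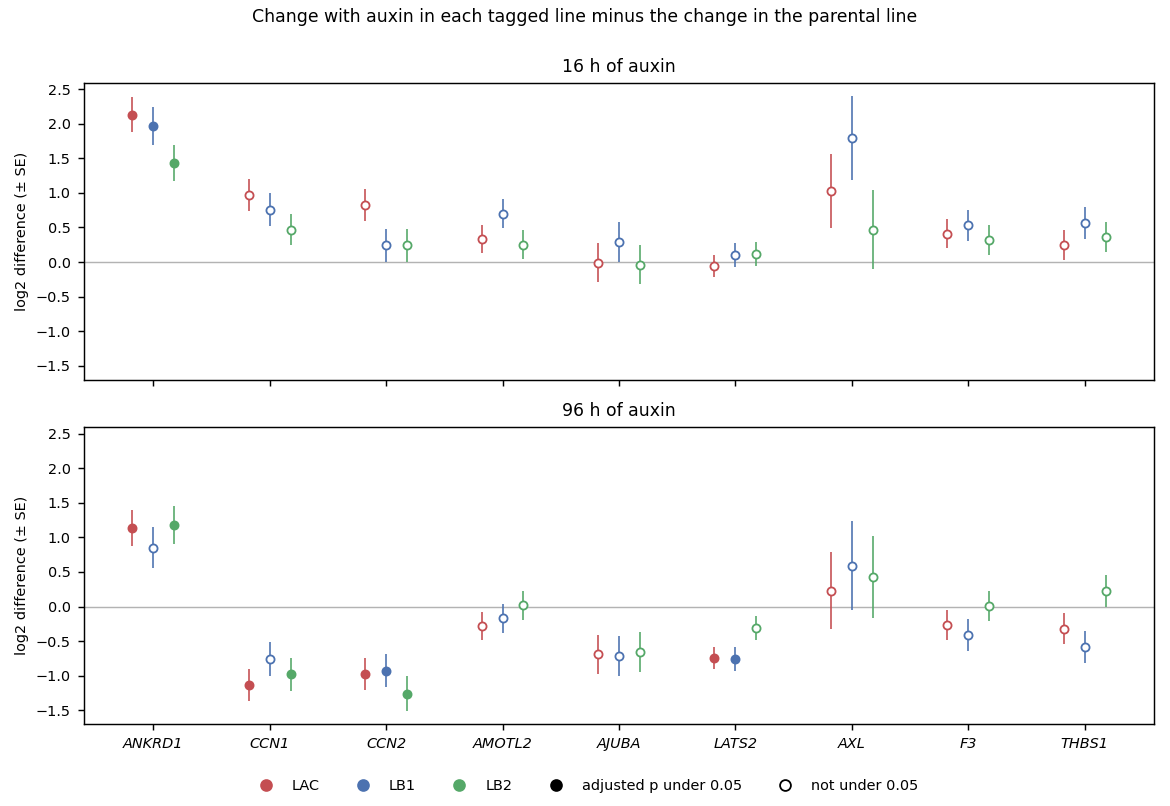
Change with auxin in each tagged line minus the change in the parental line, on the log2 scale with the standard error as bars, at 16 h (top) and 96 h (bottom); filled points have an edgeR adjusted p under 0.05. ANKRD1 lies above 0 in all lines at 16 h, at 1.43 to 2.13, while CCN1 and CCN2 lie above 0 at 16 h and below 0 at 96 h.

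Genes of the Hippo pathway itself were followed as a list of 28, all of which passed the filter. The parental line had 1 call over 96 h, a fall of TEAD2, a TEAD family transcription factor (log2 change -0.41, edgeR adjusted p 0.0432). In LAC 7 of the 28 passed at 96 h, all lower: NF2 (merlin, -0.82), RASSF1 (-0.92), PTPN14 (a phosphatase that binds YAP, -0.83), AMOT (angiomotin, -0.75), TEAD3 (-0.51), WWC1 (KIBRA, -0.42) and the kinase MAP4K4 (-0.34), with edgeR adjusted p from 1.81e-05 to 0.0376. LB1 had 4 such falls (PTPN14, AMOT, TEAD2 and MAP4K4, -0.43 to -0.68), and LB2 had 3 (RASSF1, AMOT and TEAD2, -0.49 to -0.88). At 0 h the spread was wide in LAC for RASSF1 (30.2 ± 15.5 CPM) and NF2 (299 ± 89.4), and in LB2 for RASSF1 (27.8 ± 10.6). It was narrower in LAC for PTPN14 (316 ± 14) and AMOT (26.2 ± 1.73, SD, n = 4 each). Genes of the lists were not tested with single libraries left out. Of all genes, 3.84%, 8.64%, 2.12% and 1.6% fell at 96 h in the parental line, LAC, LB1 and LB2. Median changes of the list were -0.06, -0.21, -0.16 and -0.04 in the parental line, LAC, LB1 and LB2. At 16 h the calls went the other way: 3 of the 28 rose in LAC (YAP1, 0.50, VGLL3, 0.62, and SAV1, 0.56), 3 in LB1 (VGLL3, 0.81, STK4, 0.41, and SAV1, 0.55) and 1 in LB2 (LATS1, 0.62), with edgeR adjusted p from 0.00917 to 0.0496. Of all genes, 1.34%, 0.987% and 1.43% rose at 16 h in these lines and 4.23% in the parental line, where no gene of the list was called and 0.05 was its median change. Tested as the change minus the parental change, 0 of the 28 were called at 16 h in LAC, LB1 or LB2. The rises were thus not shown to exceed those of the parental line. At 96 h 2 were lower by this measure in LAC (4.3% of all genes were), and 0 were called in LB1 or LB2. YAP1, the gene of YAP itself, was not called over 96 h in any line. Its mean level (± SD, n = 4 or 3) before auxin was 358 ± 47.8, 339 ± 78.5, 341 ± 6.62 and 274 ± 36.3 CPM in the parental line, LAC, LB1 and LB2. After 96 h it was 438 ± 34, 437 ± 21.8, 283 ± 24.9 and 342 ± 15.7 in the same order. Against the parental line, 5 of the 28 were lower in LB1 at 0 h (2.43% of all genes were) and 10 at 96 h (9.79%). YAP1 was among the latter (-0.63, edgeR adjusted p 0.000852). SAV1, a scaffold of the MST kinases, was low at both times, with 39.9 ± 0.0991 CPM in LB1 (n = 3) and 75.2 ± 3.61 in the parental line (n = 4) at 0 h, and 42 ± 6.09 and 77.1 ± 9.61 at 96 h (SD, n = 4 each). In LB2, 5 of the 28 were lower than in the parental line at 0 h (4.3% of all genes were) and 3 at 96 h (4.03%). In LAC at 0 h, 5 were higher (8.71%) and 2 lower (7.08%), and at 96 h 0 were called (1.36% in either direction).

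A second list held 26 further genes reported as targets of YAP or TAZ, of which 23 passed the filter. It shares PTPN14, LATS1, AMOTL1, ARHGAP29 and TEAD1 with the Hippo list, and neither list was tested as a set. At 96 h 8 of the 23 fell in LAC (8.64% of all genes did), 4 in LB1 (2.12%), 2 in LB2 (1.6%) and 2 in the parental line (3.84%). The medians of the list, -0.15, -0.20, -0.07 and -0.05 in that order, were nearer to 0 than those of the 9 members. In LAC the falls included ARHGEF17 (-1.01, edgeR adjusted p 1.6e-05), FJX1 (-0.98, 0.00885), CRIM1 (-0.61, 0.0005), TNFRSF12A, the receptor of TWEAK (-0.80, 0.00617), and CCND1, cyclin D1 (-0.45, 0.019). In LAC at 0 h the spread was wide for FJX1 (63.4 ± 29.7 CPM), TNFRSF12A (171 ± 69.1) and ARHGEF17 (119 ± 31.7). It was narrower for CRIM1 (390 ± 23.9) and CCND1 (1660 ± 11.7, SD, n = 4 each). In the parental line IGFBP3 (0.94, edgeR adjusted p 0.0433) and NUAK2 (0.85, 8e-04) rose. MYC, the growth-promoting transcription factor, rose over 96 h in the parental line (1.05), LB1 (0.83) and LB2 (0.94), with edgeR adjusted p of 3.79e-08, 2.39e-05 and 1.93e-06. Over all genes, 3.94%, 1.05% and 1.95% rose at 96 h in these lines, and 6.74% rose in LAC. In LAC the MYC change was 0.28 and was not called (edgeR adjusted p 0.103), from a level at 0 h that was 0.87 (log2) above the parental one (edgeR adjusted p 1.08e-06).

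Across the 12 group means of log2 CPM, the patterns of the members were alike to different degrees. Pearson's r over the 36 pairs ran from 0.32 to 0.91 with a median of 0.73, as a description over groups that share lines. F3 and THBS1 were most alike at 0.91, LATS2 and THBS1 reached 0.90, CCN1 and AMOTL2 0.90, ANKRD1 and AMOTL2 0.89, and CCN2 and AJUBA 0.88. CCN2 and F3 were least alike, at 0.32. For example, CCN2 kept its level in LB1 at 0 h while F3 was low there. In LB2 at 96 h CCN2 was at 9.14 CPM and F3 at 91.4, against 26.7 and 77.5 in the parental line. Outside the list, among 13997 genes with a symbol and a mean of at least 1 CPM, NPC2 (0.94), WDR45 (0.94) and PDLIM7 (0.93) followed ANKRD1 most closely, DUSP8 (0.96), CSRP1 (0.95) and MYADM (0.93) followed CCN1, and NRM (0.95), FBXO11 (0.91) and CD151 (0.90) followed CCN2.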

How the data were processed

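Ribosomal RNA was depleted with Ribo-Zero Plus and stranded libraries were sequenced in pairs, per the labels' protocols. The authors deposited raw counts per gene, made with featureCounts 1.6.4 from the environment of nf-core/rnaseq 1.4.2, per the file headers; STAR 2.7.10a, SAMtools 1.10, deepTools 3.4.5, DESeq2 1.40.2 and GRCh38 are listed in the submitters' processing notes. The strand setting of the counting and the annotation release are not given in the sources used here, so counts of overlapping genes are uncertain. All 46 count columns were matched to libraries by name. Left out was 1 gene whose entry is split over 3 lines. Symbols were found for 67.5% of genes. Gene overlaps were found from the gene positions in the count table, and GC content was taken from GENCODE release 29. Intervals set by counting are wider in shallow libraries: 3 counts are 6.26 CPM before TMM scaling in the least deep one.

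Tests used edgeR 4.0.16 (R 4.3.3) and its quasi-likelihood method in 1 fit of 46 libraries with 12 group coefficients, TMM scaling, the filterByExpr filter by group and Benjamini-Hochberg adjustment over 21484 genes, two-sided, in 23 comparisons. Standard errors were derived from the test, as the absolute log2 value divided by the square root of its F statistic. CPM values are TMM-scaled. Likeness used log2 CPM with a prior count of 2. The named genes were all 9 members in every group, the most alike genes and examples from both lists. Some results of the second list are not reported here. The members and lists were chosen with earlier results of these data known. Alternatives were RLE size factors, library size only, no low-count filter, DESeq2 1.42.0, limma 3.58.1 voom with sample quality weights, the compared libraries only, a replicate block, no libraries under 5000000 counts, removal of the GC and length trend, leaving out each replicate, and a prior count of 0.5. No replicates were near-identical: over 66 pairs, chi-square divided by its degrees of freedom was at least 3.65.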

Additional observations from a re-analysis of the deposited data

Results flagged for a closer look

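In 90 gene and group combinations with 4 libraries, 9 held a library far from the other 3; chance gives this in about 1 in 20 groups. At 0 h, replicate 1 of LAC, a library of 3318819 counts, accounted for 4 of them: AMOTL2 at 490.0 CPM against 427 to 432 in the others, AJUBA at 600.0 against 263 to 306, AXL at 6.47 against 3.18 to 3.62, and F3 at 126 against 167 to 173. Replicate 1 of LB2 at 0 h, of 1894447 counts, held AJUBA at 489 CPM against 195 to 214. Replicate 4 of the parental line at 0 h, of 3770140 counts, was low for CCN1, at 145 CPM against 185 to 190.0, and for CCN2, at 29 against 34.2 to 35. Deeper libraries gave the other 2: AJUBA at 246 CPM in replicate 2 of the parental line at 96 h, against 187 to 192, and LATS2 at 135 in replicate 3 of LAC at 16 h, against 115 to 118. The part of depth in these values was not tested.

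A response that differed from the parental one was called in 12 cases. ANKRD1 fell less than in the parental line at 16 h in LAC (2.13), LB1 (1.97) and LB2 (1.43), and at 96 h in LAC (1.14) and LB2 (1.18). At 96 h CCN1 fell more in LAC (-1.13) and LB2 (-0.98), CCN2 in LAC (-0.98), LB1 (-0.93) and LB2 (-1.26), and LATS2 in LAC (-0.74) and LB1 (-0.76).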

How the results depend on the processing

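Of 207 tests of a member in a comparison, 73 were called; 48 of these passed in every alternative tried and none of the 73 changed sign. A further 36 passed in some alternative only. The remaining 98 were called in none, and their values changed sign 130 times over 1886 alternatives. THBS1 in LB2 against the parental line at 16 h, 0.23 and not called, was -0.05 without replicate 1 of LB2 at 16 h and 0.37 without replicate 4.

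Counts of called members that moved by over 1.5 times were these. For the change with auxin, the parental line at 16 h gave 2 without the low-count filter, and at 96 h 7 with voom, with the compared libraries only and without libraries under 5000000 counts. At 16 h LAC gave 0 with the compared libraries only. LB1 gave 2 with GC and length trend removal, voom, the compared libraries only and without libraries under 5000000 counts. LB2 gave 0 with the compared libraries only and 2 with DESeq2, GC and length trend removal, library size only and voom, and at 96 h 3 with the compared libraries only. For the level against the parental line, LB2 at 0 h gave 2 with GC and length trend removal, library size only, voom and without libraries under 5000000 counts. At 16 h LAC gave 8 with the compared libraries only and without libraries under 5000000 counts and 9 with voom. LB1 at 16 h gave 3 with DESeq2 and GC and length trend removal, 4 with voom, the compared libraries only and without libraries under 5000000 counts, and 0 without the filter. At 96 h LAC gave 1 with DESeq2, GC and length trend removal, voom, the compared libraries only and without libraries under 5000000 counts, and LB2 gave 4 with voom, the compared libraries only and without libraries under 5000000 counts. For the response minus the parental one at 16 h, LAC gave 2 with RLE, the compared libraries only, no filter and without libraries under 5000000 counts, 3 with DESeq2, library size only and voom, and 4 with GC and length trend removal. LB1 gave 2 with GC and length trend removal and the compared libraries only, and LB2 gave 0 with RLE and the compared libraries only. At 96 h LB1 gave 5 with the compared libraries only, 1 with library size only and with the replicate block, and 0 without the filter, and LB2 gave 1 with the compared libraries only. The cause was not tested.

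Leaving out 1 library gave, for the changes at 16 h, 3 to 6 called members in the parental line and 0 to 1 in LAC and LB1. Against the parental line the ranges were 3 to 6 in LAC, 0 to 1 in LB1 and 1 to 2 in LB2 at 16 h, and 1 to 2 in LB2 at 0 and 96 h. For the response differences they were 1 to 2 in LAC and 0 to 1 in LB2 at 16 h, and 0 to 2 in LB1 and LB2 at 96 h. Nothing in the labels pairs wells by number. Correlations of deviations over 63 same-numbered pairs ran from -0.57 to 0.69, and 19 pairs correlated best with their own number. Every pair exceeded 0.1 in 2 of 17 comparisons, LAC at 16 h against 0 h and LB2 against the parental line at 96 h; in the first the block changed no member's call. The replicate block ended 1 member call, the CCN2 response in LB1 at 96 h (-0.90), and passed 3 that were not called: CCN2 (0.45) and AMOTL2 (0.46) in LAC against the parental line at 0 and 16 h, and AJUBA (-0.64) in LB2 against it at 96 h. Scaling by library size only moved the median of all genes by up to 0.21 (LAC response at 96 h). For likeness, a prior count of 0.5 left each most alike member as it was. For AXL, 0 counts in the least deep library could hide a low level, since 3 counts there are 6.26 CPM before TMM scaling.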
